A study of Homo sapiens with 5 samples.

Results

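The 10 genes described here were 7 matrix metalloproteinases, MMP1, MMP2, MMP7, MMP9, MMP10, MMP13 and MMP14, and 3 tissue inhibitors of metalloproteinases, TIMP1, TIMP2 and TIMP3, out of 33538 genes in the count tables. The rule names these genes and uses no measured value as a threshold, although earlier results of these data were known when they were chosen. Their transcripts were counted in KYSE30-Luc-GFP cells, an established human line of esophageal squamous cell carcinoma that carries luciferase and green fluorescent protein. One library came from the parental culture, and 4 came from tumor cells recovered from mouse lungs 6 h, 48 h, 2 months or 4 months after injection into the tail vein. The hosts were NOD SCID mice, which lack functional T and B lymphocytes, and the lung cells were dissociated, depleted of mouse cells and sorted for green fluorescence. Cells of several mice were pooled for each lung library but the last, which came from 1 mouse. The culture and the lung cells share the line and its reporters, and no library of an untreated lung or of another line entered the comparisons.

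Matrix metalloproteinases are zinc endopeptidases that are made as inactive proenzymes and cleave collagens, laminins, fibronectin, cadherins and membrane-bound growth factors. MMP1 and MMP13 are collagenases, MMP2 and MMP9 are gelatinases that cut basement membrane collagen, MMP10 is a stromelysin, MMP7 is matrilysin, and MMP14 is anchored in the membrane. The TIMPs bind the active site of these enzymes. TIMP2 also bridges MMP14 to the MMP2 proenzyme on the cell surface, TIMP1 binds the MMP9 proenzyme, and TIMP3 is held in the extracellular matrix and also blocks ADAM family sheddases. Transcript counts do not report activation of a proenzyme or the amount of secreted protein.

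After the quality filter, 19986 of 26712 barcodes were kept as cells, of which 9059 were parental. The lung libraries kept 1957 cells at 6 h and 1149 cells at 48 h, then 3322 cells at 2 months and 4499 cells at 4 months. The summed depth was between 32540023 UMIs at 6 h and 204864006 UMIs in the parental library, and the median per cell was between 12979 UMIs at 6 h and 39076 UMIs at 48 h. A UMI marks 1 captured molecule at its 3′ end, so levels are given as UMIs per 1000000 UMIs of the group (CPM) and are not scaled to gene length. There was 1 library for each timepoint, so no difference between timepoints has a replicate check or a test, and all intervals are 95% intervals that cover counting error only. The parental culture was divided by the study's signature filter, which asks for at least 1 UMI of C19orf33, S100A14 or RHOD and at least 1 UMI of a gene of its other signature group, such as CST6, CD44 or TM4SF1. None of the 10 genes is part of that filter. It held for 1310 parental cells (14.5%), called signature-positive here, and the other 7749 are called signature-negative.

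The labelled squamous identity was uneven in its markers. Summed over 7 squamous markers, the level was 4.88 CPM in signature-negative and 367.6 CPM in signature-positive parental cells, 3280 CPM at 6 h, 2695 CPM at 48 h, 8392 CPM at 2 months and 18317 CPM at 4 months, and KRT5 was at 0.52 CPM at 6 h. The markers had unlike courses. In the lung libraries in order of time, SFN was at 2347, 2157, 602 and 1244 CPM and EPCAM at 306, 307, 159 and 167 CPM. KRT17 was at 5.38, 27.2, 4353 and 10139 CPM. SFN thus held most of the sum at 6 h and 48 h. In signature-positive parental cells, SFN (183.4 CPM) and EPCAM (129.7 CPM) held most of it. There KRT6A was at 35.7 CPM and TP63 at 16.7 CPM, but KRT17 was at 1.9, KRT14 at 0.19 and KRT5 at 0.0316 CPM. Endothelial markers summed to at most 0.707 CPM in any whole library, and fibroblast markers summed to between 2.37 CPM at 6 h and 13.6 CPM at 48 h. The 3 leukocyte markers summed to 8.51 CPM in signature-positive parental cells, 16.4 CPM at 6 h, 11.3 CPM at 48 h, 1.71 CPM at 2 months and 5.65 CPM at 4 months, nearly all of it CD68, while PTPRC was at most 0.0427 CPM in a whole library. CD68 was thus highest in the early lung libraries, as MMP9 was, and its part in the results was not tested. At 48 h, 44 of the 1149 cells had at least 0.1% of their UMIs from fibroblast, endothelial, leukocyte and smooth muscle markers, against 1 such cell at 4 months and 0 in the other 3 libraries. The 50 signature-negative cells at 48 h held 40 of them, with a median of 1837 UMIs and COL1A1 at 3385 CPM. Their median mitochondrial share was 0.0982%, against 5.38% in signature-positive cells at 48 h. COL1A2 was at 487.9 CPM and COL3A1 at 278.8 CPM in these 50 cells, but PDGFRB had 1 UMI and DCN, LUM and PDGFRA had 0 UMIs. Of the smooth muscle markers, ACTA2 was at 398.3 CPM and MYH11 had 0 UMIs. In the same 50 cells 5 of the 7 squamous markers had 0 UMIs. Of the 638 fibroblast marker UMIs at 48 h, 418 lay in these 50 cells. In signature-positive cells at 48 h the fibroblast sum was 4.71 CPM. It was 5.75 CPM in the whole parental library and 2.06 CPM in its signature-positive cells. Whether the 50 cells were tumor cells was not tested. Their values are given beside the levels of single MMPs and TIMPs that they touch, but not beside every other level at 48 h, such as that of FN1. Pairs of libraries shared between 1 and 62 cell barcodes, at most 1.84% of the smaller library.

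The members lie on 7 chromosomes in GENCODE 44 (GRCh38). MMP7, MMP10, MMP1 and MMP13 lie on the minus strand of chr11:102520508-102955732, a stretch of 435.2 kb that holds 9 protein-coding genes, all of them MMP genes. MMP2 is at chr16:55389700-55506691, MMP9 at chr20:46008908-46016561, MMP14 at chr14:22836560-22849041, TIMP1 at chrX:47582408-47586789, TIMP2 at chr17:78852977-78925387 and TIMP3 at chr22:32801705-32863041. TIMP1 and TIMP3 lie within the opposite-strand genes SYN1 and SYN3, and MMP9 overlaps the opposite-strand SLC12A5-AS1. Over all barcodes of the parental library and the 4 lung libraries in order of time, SYN1 had 148, 0, 0, 13 and 1 UMIs, SYN3 had 194, 0, 0, 13 and 3 UMIs, and SLC12A5-AS1 had 605, 26, 133, 117 and 137 UMIs. In the same order, MMP9 had 59, 469, 2266, 29 and 773 UMIs in the kept cells. The antisense count was the larger in the parental and 2-month libraries, but it covers more barcodes. At 2 months 3322 of 6038 barcodes were kept, so the counts are not like for like. Strand assignment of the reads is not given in the sources used here.

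Sequence upstream of the transcription start is shown for 4 members, because MMP7 and MMP10 are the members of the chromosome 11 stretch with the highest levels at 6 h, and TIMP1 and TIMP3 are the inhibitors whose level differed least and most between the groups compared. The sequences are from RefSeq (GRCh38.p14), run 5′ to 3′ on the strand of the gene and end at the base before the start. Capitals mark motif letters found by a search for TGAGTCA and TGACTCA (the AP-1 motif), TATAAA and TTTATA (the TATA box), and AGGAAG and CTTCCT (an ETS motif of the PEA3 type), each pair covering both strands.
MMP7, chr11:102530748-102530997, minus strand: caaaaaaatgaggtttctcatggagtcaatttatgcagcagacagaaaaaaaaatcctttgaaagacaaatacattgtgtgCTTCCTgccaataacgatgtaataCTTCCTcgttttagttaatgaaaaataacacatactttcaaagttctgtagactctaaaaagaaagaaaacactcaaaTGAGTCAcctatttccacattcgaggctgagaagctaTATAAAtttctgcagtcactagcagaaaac
MMP10, chr11:102780629-102780878, minus strand: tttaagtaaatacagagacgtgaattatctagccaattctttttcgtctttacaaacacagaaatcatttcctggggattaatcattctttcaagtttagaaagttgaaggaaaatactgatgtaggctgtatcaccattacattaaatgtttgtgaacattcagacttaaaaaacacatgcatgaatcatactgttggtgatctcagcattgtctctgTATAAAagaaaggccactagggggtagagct
TIMP1, chrX:47582186-47582435, plus strand: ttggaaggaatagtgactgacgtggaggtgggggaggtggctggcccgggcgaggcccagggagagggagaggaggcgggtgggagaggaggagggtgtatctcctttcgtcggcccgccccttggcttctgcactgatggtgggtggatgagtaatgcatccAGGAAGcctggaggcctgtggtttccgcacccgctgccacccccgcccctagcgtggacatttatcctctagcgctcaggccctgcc
TIMP3, chr22:32801455-32801704, plus strand: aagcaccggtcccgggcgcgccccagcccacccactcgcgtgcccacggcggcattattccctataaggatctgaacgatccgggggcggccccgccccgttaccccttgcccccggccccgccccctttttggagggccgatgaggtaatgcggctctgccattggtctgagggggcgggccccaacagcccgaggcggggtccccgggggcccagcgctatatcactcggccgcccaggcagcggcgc
In the window from 250 bases before to 50 bases after the start, MMP7 held an AP-1 motif that begins 67 bases before the start, a TATA box at 30 bases and ETS motifs at 169 and 145 bases. Of the letters searched, MMP10 held only a TATA box, at 31 bases. TIMP1 held 1 ETS motif, at 87 bases, and TIMP3 and MMP14 held none of the letters searched. Only exact letters were sought, so variants of a motif are not counted, and a motif not found here may be present in another form. Among 35116 promoters of the same length, the AP-1 motif was in 4.95%, the TATA box in 11.5% and the ETS motif in 33.6%. RefSeq entries of 5 of the 10 members were at hand, and those of MMP1, MMP2, MMP9, MMP13 and TIMP2 were not used here.

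The proteases differed in which timepoint held their highest level, whereas TIMP1 differed by less than 2-fold in each of the 8 comparisons, and TIMP2 in each but the one between the parental classes. Against the whole parental library, TIMP2 was 2.82-fold at 6 h, 3.12-fold at 48 h, 2.31-fold at 2 months and 2.1-fold at 4 months. MMP7 and MMP10 were highest at 6 h, MMP9 and MMP14 at 48 h, and MMP1, MMP13 and TIMP3 at 4 months. MMP2 was highest in the signature-positive cells of the culture, with an interval that overlapped the one at 48 h. The ratio of 48 h to these cells was 0.828 (0.713 to 0.962). By 3′ UMIs, TIMP1 was the most abundant of the 10 in both parental classes and in every lung library except the one at 4 months, where TIMP3 was.

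Collagenase transcripts were nearly absent before 4 months. MMP1 had 0 UMIs in signature-negative and 2 UMIs in signature-positive parental cells, 3 UMIs at 6 h, 2 UMIs at 48 h and 13 UMIs at 2 months. At 4 months it had 307 UMIs, which is 2.45 CPM (2.18 to 2.74), and its level was 15.2-fold that at 2 months (8.77 to 28.9). MMP13 had 1 UMI and 2 UMIs in the parental classes, 2 UMIs at 6 h, 0 UMIs at 48 h, which allows up to 0.0641 CPM, and 2 UMIs at 2 months. Its 74 UMIs at 4 months corresponded to 0.59 CPM (0.463 to 0.740). Both genes thus stood apart at 4 months, but neither reached the 5 CPM that was asked of a gene in a comparison.

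The gelatinases had unlike courses. MMP2 was at 2.54 CPM in signature-negative and 10.2 CPM in signature-positive parental cells, 3.63 CPM at 6 h, 8.46 CPM at 48 h, 1.79 CPM at 2 months and 8.32 CPM at 4 months. Against signature-positive parental cells, this was 0.355-fold at 6 h (0.285 to 0.439) and 0.175-fold at 2 months (0.143 to 0.214), whereas it was 0.828-fold at 48 h and 0.814-fold at 4 months. Those libraries did not differ from each other beyond counting error, with intervals of 7.65 to 9.34 CPM at 48 h and 7.82 to 8.84 CPM at 4 months. The 50 signature-negative cells at 48 h held 3 MMP2 UMIs (29.9 CPM), and the level without them was 8.42 CPM. MMP9 was at 0.312 CPM in signature-negative and 0.158 CPM in signature-positive parental cells, 14.4 CPM at 6 h, 48.4 CPM at 48 h, 0.359 CPM at 2 months and 6.16 CPM at 4 months. The early lung libraries lay above all others, and the intervals at 2 months (0.24 to 0.515 CPM) and in both parental classes overlapped. The ratio to signature-positive parental cells, which held 5 MMP9 UMIs, was 91.1-fold at 6 h (38.8 to 281.9) and 306.2-fold at 48 h (131 to 943.8). The level at 48 h was 135.1 times that at 2 months (93.8 to 202.2). In the 50 signature-negative cells at 48 h, MMP9 had 0 UMIs, which allows up to 29.9 CPM, and without them it was at 48.5 CPM.

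Matrilysin and the stromelysin were prominent at 6 h. MMP7 had 0 UMIs and 2 UMIs in the signature-negative and signature-positive parental classes. Its level was 9.04 CPM at 6 h, 1.22 CPM at 48 h, 0.136 CPM at 2 months and 1.35 CPM at 4 months. MMP10 was at 0.0231 CPM and 0.348 CPM in the parental classes, 13.3 CPM at 6 h, 0.641 CPM at 48 h, 0.21 CPM at 2 months and 7.46 CPM at 4 months. Both were low at 48 h and 2 months, and MMP10 alone of the pair was again above 5 CPM at 4 months. At 6 h the ratio to signature-positive parental cells was 142.8-fold for MMP7 (39.2 to 1184), on 2 UMIs in the parental class, and 38.1-fold for MMP10 (21.1 to 77). Between 6 h and 48 h the level was 7.42 times lower for MMP7 (5.57 to 10) and 20.7 times lower for MMP10 (14.3 to 31.1). MMP10 was 35.5-fold higher at 4 months than at 2 months (22 to 61.2).

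MMP14, the membrane-anchored activator of MMP2, differed between the signature classes. It was at 0.254 CPM in signature-negative and just under 5 CPM (158 UMIs) in signature-positive parental cells, 4.7 CPM at 6 h, 14.7 CPM at 48 h, 6.9 CPM at 2 months and 12.5 CPM at 4 months. The ratio between the parental classes was 19.7 (14 to 28.2), although both stayed below the 5 CPM limit. Signature-positive parental cells (4.25 to 5.84 CPM) and the 6 h library (3.99 to 5.51 CPM) overlapped, whereas 48 h lay above 4 months and 4 months above 2 months. The classes at 2 months differed as well, with 9.39 CPM in 2716 signature-positive and 0.138 CPM in 606 signature-negative cells. At 48 h the 50 signature-negative cells, which were not shown to be tumor cells, held 12 MMP14 UMIs, or 119.5 CPM (61.7 to 208.7). The level without them was 14.5 CPM.

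Among the inhibitors, TIMP1 was above 100 CPM in every library. It was at 220.2 CPM in signature-negative and 139.8 CPM in signature-positive parental cells, 190.1 CPM at 6 h, 221.3 CPM at 48 h, 168.5 CPM at 2 months and 125.1 CPM at 4 months. TIMP2 was at 6.86 CPM and 20.7 CPM in the parental classes, 25.4 CPM at 6 h, 28.1 CPM at 48 h, 20.8 CPM at 2 months and 18.9 CPM at 4 months. Apart from the signature-negative class, TIMP2 therefore stayed between 18.9 and 28.1 CPM. Its intervals at 6 h and 48 h overlapped, although the interval of the ratio of 48 h to 6 h (1.11, 1.01 to 1.21) did not include 1. The intervals at 2 months and in signature-positive parental cells overlapped as well, with a ratio of 1.01 (0.918 to 1.1). The 50 signature-negative cells at 48 h held 14 TIMP2 UMIs (139.4 CPM) and 2 TIMP1 UMIs (19.9 CPM), so that TIMP2 was above TIMP1 there. Without these cells TIMP2 was at 27.8 CPM and TIMP1 at 221.7 CPM. TIMP3 was at 11.5 CPM and 10.2 CPM in the parental classes, 17.5 CPM at 6 h, 6.07 CPM at 48 h, 39.6 CPM at 2 months and 181.3 CPM at 4 months. Its level at 4 months was 17.8-fold that of signature-positive parental cells (16 to 20) and 4.57-fold that at 2 months (4.41 to 4.75). At 2 months the TIMP3 level was 51 CPM in signature-positive and 8.69 CPM in signature-negative cells, the latter near both parental classes.

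**Figure D1:**
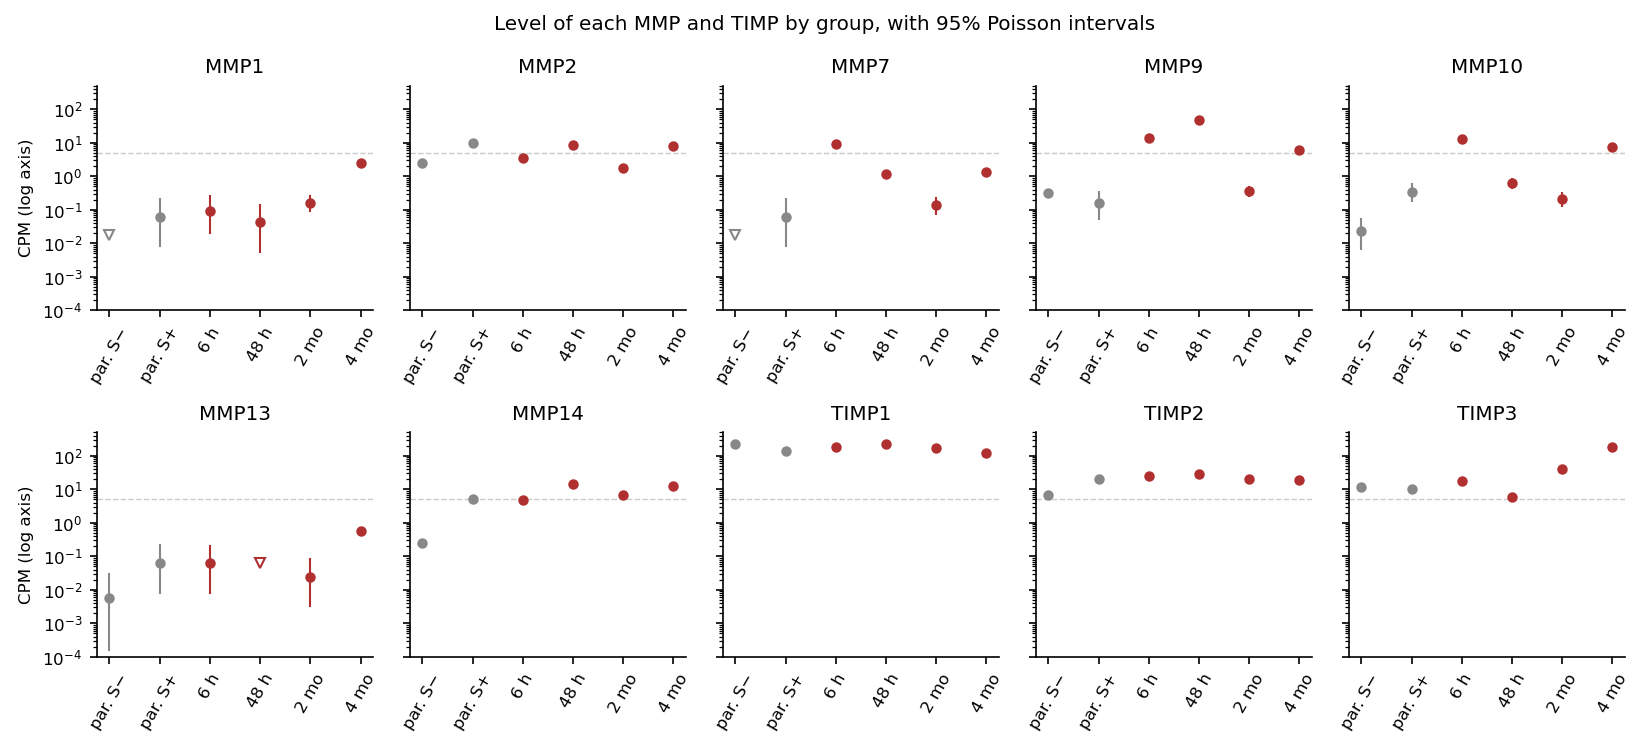
Level of each gene in CPM on a log axis in 6 groups: signature-negative (S−) and signature-positive (S+) parental cells in grey, and the lung libraries in red. Bars are 95% Poisson intervals, open triangles are the limit that 0 UMIs allow and the dashed line is 5 CPM; MMP9 reaches 48.4 CPM at 48 h and TIMP3 181.3 CPM at 4 months.

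In each of 8 comparisons, a gene was considered if it reached 5 CPM in either group and was called from a 2-fold ratio of CPM + 1. Since a gene can pass the limit through its higher group alone, the counts of members are given as descriptions beside the share of all genes called. The 4 lung libraries were each set against the same signature-positive parental cells, so those 4 comparisons share a control. Between the parental classes, 4 of the 10 members were considered, and MMP2 (log2 ratio 1.66) and TIMP2 (1.46) were called higher in signature-positive cells. Of 10711 genes, 12.9% were called higher and 18.8% lower. Among genes of at least 50 CPM in both groups the median log2 ratio was -0.24 there, -0.12 for 4 months over 2 months and -0.10 for 4 months over parental cells, and between 0.10 and -0.02 elsewhere.

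At 6 h, 7 members were considered against signature-positive parental cells. MMP9 (3.73), MMP10 (3.40) and MMP7 (3.24) were called higher and MMP2 (-1.28) lower on the log2 scale, where 10.6% of genes were called higher and 12.3% lower. At 48 h, MMP9 (5.42) and MMP14 (1.39) of 6 members were called higher and 0 lower, against 12.8% and 9.43% of genes. MMP9 was thus called in both early libraries. MMP7 was below 5 CPM at 48 h and so was not considered, with 1.22 CPM against 0.0633 CPM, or 19.3-fold (5.09 to 162.8). At 2 months, 5 members were considered, of which TIMP3 (1.86) was called higher and MMP2 (-2.01) lower, against 9.09% and 6.5% of genes. At 4 months, TIMP3 (4.03), MMP10 (2.65), MMP9 (2.63) and MMP14 (1.17) of 7 members were called higher and 0 lower, where 8.18% of genes were called higher and 14.4% lower.

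From one lung library to the next, the members called also differed. From 6 h to 48 h, 8 members were considered. MMP9 (1.68), MMP14 (1.46) and MMP2 (1.03) were called higher and MMP10 (-3.12), MMP7 (-2.18) and TIMP3 (-1.39) lower at 48 h, whereas 3.24% of all genes were called higher and 1.42% lower. From 48 h to 2 months, TIMP3 (2.52) of 6 members was called higher and MMP9 (-5.19) and MMP2 (-1.76) lower, against 12.2% and 13% of genes. MMP14 was just inside the 2-fold limit there, with a log2 ratio of -0.99. From 2 months to 4 months, MMP10 (2.81), MMP9 (2.40), TIMP3 (2.17) and MMP2 (1.74) of 7 members were called higher and 0 lower, while 3.03% of genes were called higher and 9.38% lower. The call of MMP2 between 6 h and 48 h was lost when every cell was given equal weight (0.77) and when the median ratio was set to 0 (0.93).

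**Figure D2:**
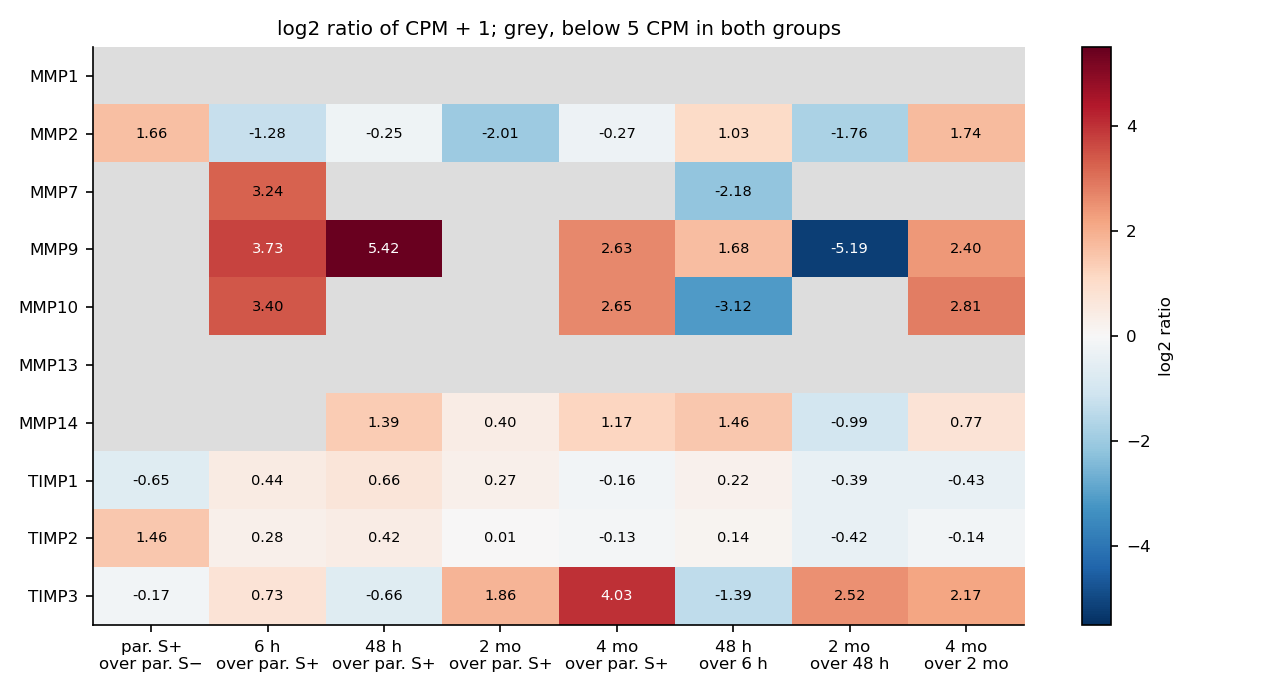
Heat map of the log2 ratio of CPM + 1 for the 10 members (rows) in the 8 comparisons (columns), with S+ for signature-positive and S− for signature-negative parental cells; grey marks members below 5 CPM in both groups. MMP9 holds both extremes, 5.42 for 48 h over parental S+ and -5.19 for 2 months over 48 h.

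TIMP1 was the only member found in most cells of every library, and the shares of the other inhibitors overlapped those of the proteases. TIMP1 was found in 89.5% of signature-positive parental cells (87.8 to 91.1, exact Clopper-Pearson interval), 81.8% of cells at 6 h, 87.3% of those at 48 h, 81.2% of those at 2 months and 77.2% of those at 4 months. TIMP3 was found in 13.7%, 12.3%, 8.88%, 35% and 73.5% of the same groups. The share with TIMP3 at 4 months thus came close to the share with TIMP1. Among the proteases, MMP14 was found in 31.3% and MMP9 in 25% of cells at 48 h, MMP10 in 9.3% and MMP7 in 5.98% at 6 h, and MMP1 in 2.58% at 4 months. Each of these shares was above that of the same gene in both parental classes. In signature-positive parental cells it was 10.8% for MMP14, 0.382% for MMP9, 0.84% for MMP10 and 0.153% for MMP7 and for MMP1. In signature-negative ones it was 0.555% for MMP14, 0.684% for MMP9 and 0.0258% for MMP10. MMP7 and MMP1 were found in 0 of these 7749 cells, which allows up to 0.0387%.

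Depth differed between libraries, so each cell was also thinned to 1000 UMIs, which left out 0 cells. MMP9 was then found in 4.18% of cells at 48 h (3.1 to 5.5) and 0.766% at 6 h (0.43 to 1.26), against 1 of 1310 signature-positive parental cells. MMP10 was found in 1.38% at 6 h, 0.087% at 48 h and 0.689% at 4 months. The order of these timepoints was the same as in CPM. MMP14 was found in 0.382% of signature-positive parental cells, and in 0.358%, 1.74%, 0.843% and 1.29% of the lung libraries in order of time. TIMP3 was found in 1.07%, 1.64%, 0.609%, 3.97% and 15.8% of these 5 groups, and TIMP1 in 13.2%, 18.6%, 17.5%, 13.8% and 11.9%. The MMP2 shares of 0.687%, 0.613%, 0.783%, 0.241% and 0.8% had overlapping intervals except that 2 months lay below 4 months. In the 50 signature-negative cells at 48 h, TIMP1 was found in 2 cells, MMP9 in 0 cells, MMP14 in 11 cells and TIMP2 in 10 cells without thinning.

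**Figure D3:**
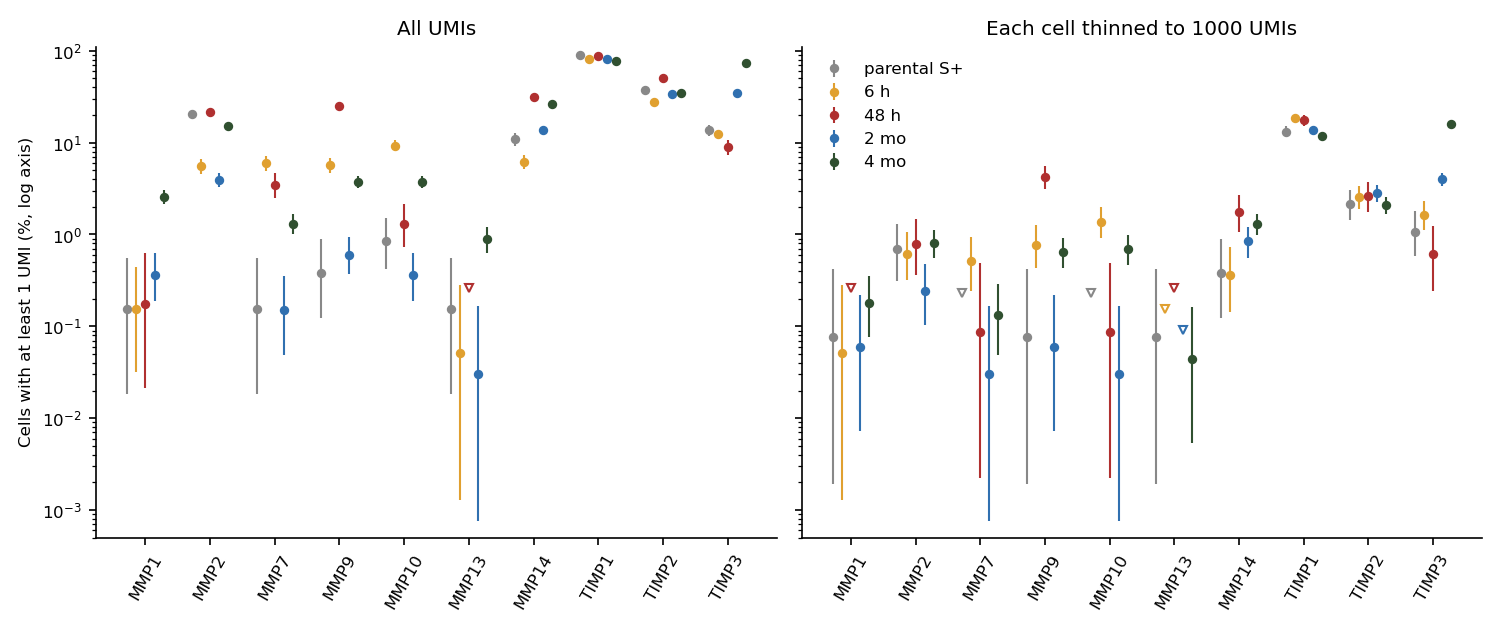
Percent of cells with at least 1 UMI of each member on a log axis, from all UMIs (left) and after thinning each cell to 1000 UMIs (right), in signature-positive parental cells and the lung libraries. Bars are exact 95% binomial intervals and open triangles the limit that 0 cells allow; after thinning, MMP9 at 48 h is at 4.18% and TIMP3 at 4 months at 15.8%.

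Inhibitor transcripts outnumbered protease transcripts in every group, by a margin that differed widely. The 7 MMPs made up 1.3% of the UMIs of the 10 genes in signature-negative parental cells (1.19 to 1.41) and 8.53% in signature-positive ones (7.83 to 9.27). In the lung, the 6 h share was 16.2% (15.5 to 17) and the 48 h share 22.3% (21.7 to 23), while the 2-month share was 4.02% (3.74 to 4.3) and the 4-month share 10.7% (10.4 to 10.9). None of the intervals of these 6 groups overlapped, and the share was highest at 48 h and lowest in the signature-negative cells. The order of signature-positive parental cells and 4 months depended on the genes summed: over all measured MMPs and TIMPs, MMP28 included, the share was 29.5% in the former and 21.4% in the latter. There were 10.7 TIMP UMIs for each MMP UMI in signature-positive parental cells, 3.47 at 48 h and 23.9 at 2 months. The summed TIMP level was 233 CPM at 6 h, 255.4 CPM at 48 h, 228.9 CPM at 2 months and 325.3 CPM at 4 months. Over the same libraries the summed MMP level was 45.2, 73.5, 9.58 and 38.8 CPM, so the sum of the proteases spanned a wider fold range than that of the inhibitors, though not a wider range in CPM.

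The make-up of each sum changed as well. MMP2 held 64.2% of the protease UMIs in signature-positive parental cells, MMP9, MMP10 and MMP7 held 31.9%, 29.4% and 20% at 6 h, and MMP9 alone held 65.9% at 48 h. At 2 months MMP14 held 72%. At 4 months 5 proteases each held over 5%, with MMP14 at 32.1%, MMP2 at 21.4%, MMP10 at 19.2%, MMP9 at 15.9% and MMP1 at 6.31%. On the inhibitor side, TIMP1 held 81.9% of the UMIs in signature-positive parental cells and 86.6% at 48 h, but 38.5% at 4 months, when TIMP3 held 55.7%. Cells with more MMP than TIMP UMIs were 1.76% of signature-positive parental cells (1.12 to 2.62). In the early lung libraries they were 5.26% of the 6 h cells (4.32 to 6.35) and 7.14% of the 48 h cells (5.72 to 8.78), and in the late ones 1.05% of the 2-month cells (0.735 to 1.46) and 2.67% of the 4-month cells (2.22 to 3.18). Cells with UMIs of at least 3 different MMPs were 0 of 1310 signature-positive parental cells, which allows up to 0.229%, against 17 (0.869%) of the 6 h, 59 (5.13%) of the 48 h, 2 (0.0602%) of the 2-month and 120 (2.67%) of the 4-month cells. Both kinds of cell were counted from all UMIs, without thinning, so the part of depth was not separated. Median depth was 24831 UMIs in signature-positive parental cells, 12979 at 6 h and 39076 at 48 h. It was 21864.5 at 2 months and 27559 at 4 months.

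**Figure D4:**
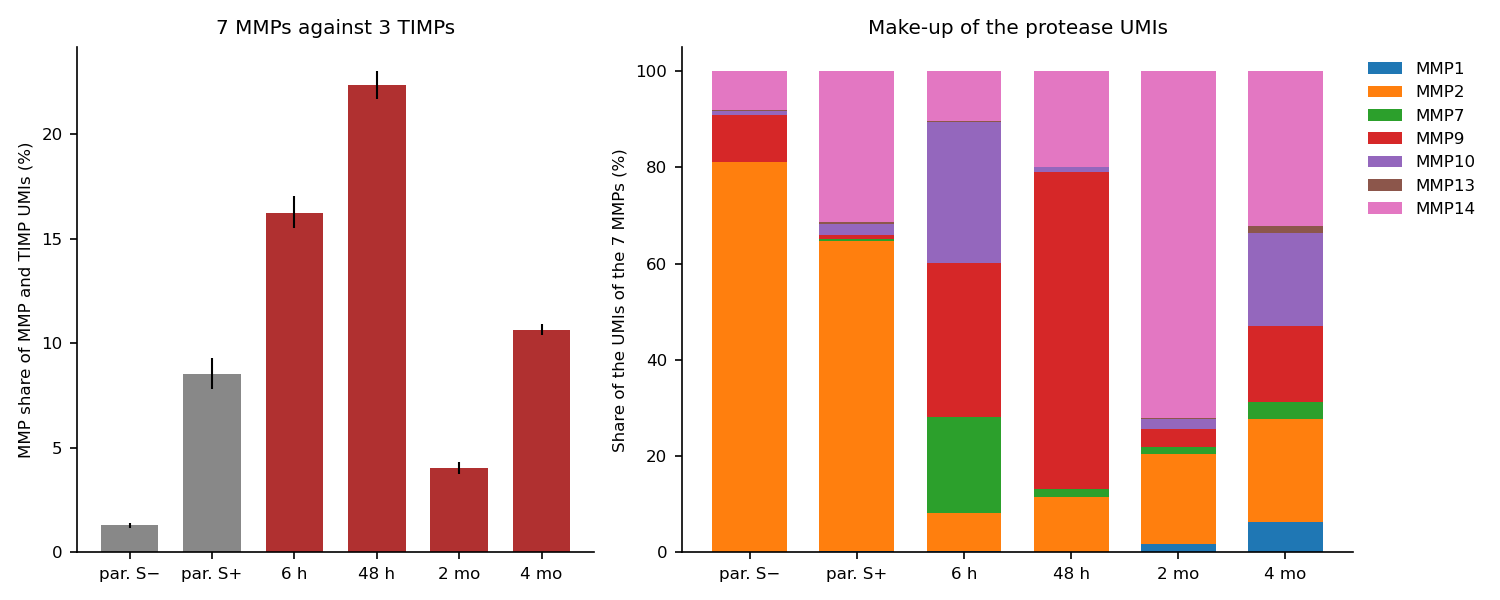
Left, share of the UMIs of 7 MMPs among those of the 7 MMPs and 3 TIMPs, in percent, with exact 95% binomial intervals; right, make-up of the MMP UMIs by gene, in signature-negative (S−) and signature-positive (S+) parental cells and the lung libraries. The left bars reach 22.3% at 48 h, and MMP9 fills 65.9% of the right bar at that time.

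The UMIs of several proteases lay in few cells. At 4 months, the 45 cells with the most UMIs of a gene, 1% of the library, held 91.7% of the MMP7 UMIs, 80.9% of the MMP10 UMIs, 74.9% of the MMP1 UMIs and 72.1% of the MMP9 UMIs. The same number of cells held 10.2% of the MMP14 UMIs, 9.77% of the TIMP3 UMIs and 8.53% of the TIMP1 UMIs. These proteases were found in 59 (MMP7) to 168 (MMP9) cells of the library, so a few cells could hold most of the counts. Single cells held up to 106 UMIs of MMP9 and 74 UMIs of MMP10. At 48 h, the top 12 cells held 33.1% of the 2266 MMP9 UMIs, and 27 of the 287 cells with MMP9 were enough to reach 50% of them. At 6 h, the top 20 cells held 62.7% of the MMP9 UMIs, 53.4% of the MMP7 UMIs and 41.4% of the MMP10 UMIs. The levels of MMP7, MMP9 and MMP10 at 6 h and, with MMP1, at 4 months thus rested on a small part of each library.

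**Figure D5:**
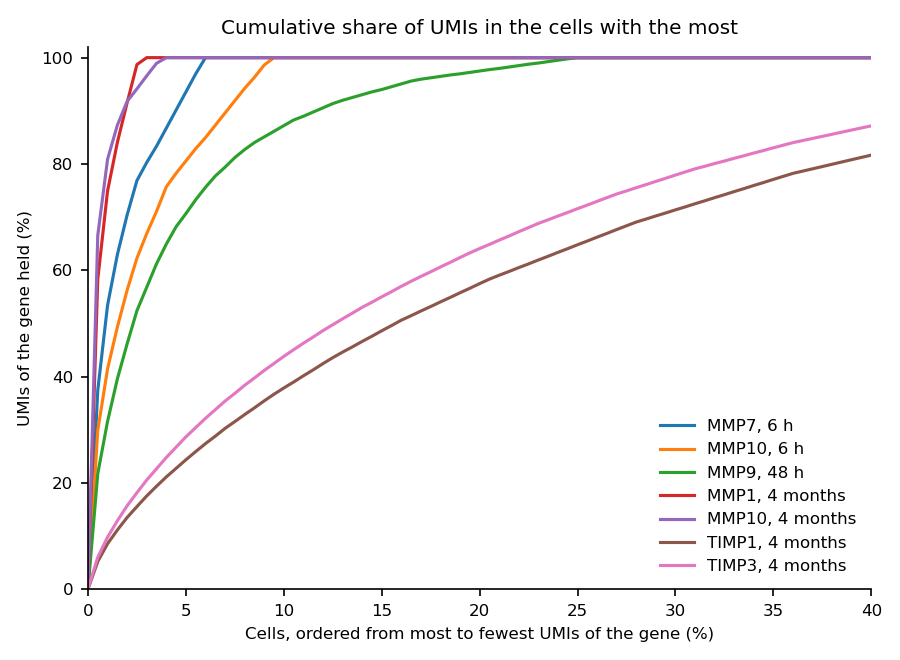
Cumulative percent of the UMIs of a gene (vertical axis) held by the cells with the most, in percent of the cells of the library (horizontal axis). The curves of MMP1 and MMP10 at 4 months climb within the first cells, with 74.9% and 80.9% of UMIs in 1% of cells, while TIMP1 and TIMP3 climb slowly.

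At 4 months the collagenase MMP1 and the stromelysin MMP10 were found in the same cells more often than the product of their shares. MMP1 was found in 116 and MMP10 in 167 of the 4499 cells, and 38 cells held both, 8.83 times the product. The cells with MMP1 held 398 of the 936 MMP10 UMIs and 26 of the 74 MMP13 UMIs. MMP9 and MMP10 were found together in 26 cells, 4.17 times the product. At 6 h, MMP7 and MMP9 were found together in 15 cells, 2.26 times the product, MMP9 and MMP10 in 16 cells, 1.55 times, and MMP7 and MMP10 in 10 cells, 0.919 times. By level, the cells with MMP10 at 6 h had MMP9 at 9.41 against 15.2 CPM (0.621-fold, 0.437 to 0.859). The same cells had MMP7 at 3.76 against 9.83 CPM (0.383-fold, 0.216 to 0.633). Read from the cells with MMP9 at 6 h, MMP10 was at 15.3 against 13.1 CPM (1.17-fold, 0.831 to 1.6). The levels of MMP9 and MMP10 thus gave no single direction for that pair. These intervals cover counting error and not the spread between cells, and the top 20 cells at 6 h held 62.7% of the MMP9 UMIs. Deeper cells show more genes, and the cells with a UMI of MMP10 had a median of 32113 UMIs at 4 months, against 27428.5 in the others. At 6 h the medians were 23713 and 12256 UMIs. These co-detections were counted from all UMIs, without thinning, so the part of depth in them was not separated in the values given.

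Genes beside the proteases were then read in cells with and without a UMI of a member. These cells were chosen by the measured UMI, after the values were seen, so the differences are descriptions, and the cells with a UMI were the deeper ones in each case. At 4 months, cells with MMP10 had TNC, a matrix glycoprotein, at 161.6 CPM against 19.3 CPM in the others and fibronectin FN1 at 130.6 against 30.7 CPM. The cornified envelope gene SPRR2E was at 0 CPM against 120.4 CPM, and SBSN at 1.31 against 106.1 CPM. Cells with MMP1 had the same direction for TNC, with 161.8 against 21.3 CPM, and for SPRR2E, with 0 against 118.8 CPM. Some cells held both MMP1 and MMP10, so the like directions are not independent. Most genes named here and for the early libraries were picked from those that differed most in these same cells. Cells with TIMP3, with a median of 29601 UMIs against 19107, had LGALS7B at 877.5 against 318 CPM, the basal keratin KRT5 at 1895 against 1144 CPM and KRT17 at 11134 against 6020 CPM. SBSN was also higher in the cells with TIMP3, at 115.3 against 44.8 CPM, whereas SPRR2E was lower, at 59.9 against 344.5 CPM.

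In the early libraries, cells with MMP9 at 48 h had LTB, a cytokine of the TNF family, at 76 against 16.5 CPM, CSF2 at 224.6 against 94.4 CPM and CXCL8 at 119.7 against 47.3 CPM, while KRT6A was at 48 against 119 CPM. CXCL8 had the opposite order in cells with MMP9 at 6 h, at 27.7 against 60.6 CPM. At 6 h, cells with MMP7 had the kallikrein KLK5 at 112.3 against 32.8 CPM. Cells with MMP10 at 6 h had FST at 304.2 against 89.9 CPM and COL17A1 at 368.9 against 144.9 CPM.

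Of the other members of the family, 16 further MMPs and TIMP4, MMP28 alone reached 5 CPM in a group. MMP28, an MMP of epithelia, was at 0.439 CPM in signature-negative and 50.5 CPM in signature-positive parental cells, 83.8 CPM at 6 h, 118.3 CPM at 48 h, 14.6 CPM at 2 months and 42.7 CPM at 4 months. In 3′ UMIs it was above every one of the 7 MMPs in each of these groups except signature-negative parental cells, where MMP2 was higher. TIMP4 had at most 4 UMIs in a library. Within the MMP stretch of chromosome 11, MMP12 had 26 UMIs at 6 h and at most 1 UMI in any other library, MMP3 had at most 3 UMIs, and MMP8 and MMP27 had 0 UMIs in every library.

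RECK, a membrane-anchored inhibitor of MMPs, was at 17.1 CPM in signature-negative and 3.23 CPM in signature-positive parental cells, 0.215 CPM at 6 h, 0.192 CPM at 48 h, 4.15 CPM at 2 months and 0.0239 CPM at 4 months. At 2 months it was at 14.3 CPM in signature-negative and 0.406 CPM in signature-positive cells. Of 12 genes that activate, anchor or bind these enzymes, 9 were considered at 6 h, and 6 were called higher than in signature-positive parental cells and 0 lower, with a list median of 1.41 on the log2 scale against -0.05 over all genes considered, of which 10.6% were called higher. They included PLAU, the urokinase, at 568.4 against 55.5 CPM, and the proprotein convertase FURIN at 33.6 against 12.8 CPM. At 2 months, 1 of 10 was called higher and 4 lower, against 9.09% and 6.5% of all genes. The one called higher was LCN2, which binds MMP9, at 29.1 CPM at 2 months and 105.4 CPM at 4 months, against 0.158 CPM in signature-positive parental cells.

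Genes whose products the proteases cut were higher in the early lung libraries. Of 13 such genes, 12 were considered and 10 were called higher at 6 h and again at 48 h than in signature-positive parental cells, with list medians of 1.79 and 2.33 against -0.05 and 0.11 over all genes considered, and 0 were called lower. Of all genes, 10.6% and 12.8% were called higher in these comparisons. FN1 was at 21.4 CPM in signature-positive parental cells, 56.7 CPM at 6 h, 125.1 CPM at 48 h, 2.27 CPM at 2 months and 35 CPM at 4 months. At 2 months 4 of the 12 were called higher and 7 lower, against 9.09% and 6.5% of all genes, and at 4 months 4 were called higher and 1 lower, against 8.18% and 14.4%. CD44 of this list is part of the signature filter, so its difference between the parental classes is fixed by the choice of cells.

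Of 13 AP-1, ETS and RUNX factors, which bind promoters of many MMP genes, 12 were considered against signature-positive parental cells in each lung library. At 6 h 8 were called higher and 0 lower, at 48 h 7 and 0, at 2 months 5 and 3, and at 4 months 5 and 1. Over all genes, the shares called higher and lower were 10.6% and 12.3% at 6 h, 12.8% and 9.43% at 48 h, 9.09% and 6.5% at 2 months, and 8.18% and 14.4% at 4 months. FOS, FOSB, JUN, JUNB and JUND were called higher in every lung library. The paper describes enzymatic digestion of tissue for the lungs only. Digestion and residence in the lung therefore cannot be told apart in these comparisons, and the part of either was not tested. The AP-1 gene FOSL1 was at 105.7 CPM in signature-positive parental cells, 237.5 CPM at 6 h, 168.2 CPM at 48 h, 17.4 CPM at 2 months and 28.8 CPM at 4 months. FOS had another order, with 33.6, 231.8, 649.5, 359.7 and 1275 CPM. Of 8 ADAM and ADAMTS sheddases, the number called against signature-positive parental cells was 0 at 6 h, 1 higher at 48 h, and 1 lower at 2 months and at 4 months, out of 5 or 6 considered, too few to set apart from those shares over all genes.

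The genes whose course over the 6 groups was nearest to that of a member were taken as those of at least 50 CPM in a group, 3821 in all, with the smallest root mean square difference of centred log2(CPM + 1). For TIMP1 they were DDX3X (0.0533), GNL2 (0.0687) and VPS72 (0.0713). For TIMP3 they were the desmosomal cadherin DSC3 (0.585), the cathepsin CTSC (0.695) and RHOV (0.744). The distances were smaller for TIMP1, but the measure is not scaled to the range of a gene. Over the 6 groups TIMP1 lay between 125.1 and 221.3 CPM and TIMP3 between 6.07 and 181.3 CPM. The same measure was added for 3 proteases after their values were seen, although they do not reach 50 CPM. The nearest gene was NFKBIA (0.507) for MMP9, CTSV (0.625) for MMP10 and ZFAS1 (0.382) for MMP7. The 1 CPM that is added narrows the course of a gene of few CPM. MMP7 was at 0.0633 CPM in signature-positive parental cells and 9.04 CPM at 6 h, and ZFAS1 at 363.2 and 1664 CPM. A small distance for these proteases therefore does not mean a like fold difference.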

How the data were processed

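The 5 libraries were made with the 10x Genomics 3′ kit, and the authors deposited raw counts of UMIs for each gene and barcode. The submitters' processing notes name Cell Ranger 3 and GRCh38, and the file headers name matrix software 3.0.2; the annotation release is not given in the sources used here. Barcodes were kept as cells when they held 200 to 8000 genes, 1000 UMIs or more and a mitochondrial share of 15% or less. Doublets were not removed, and an alternative left out the 5% of cells with the most UMIs. Counts were summed over cells and given as CPM with exact Poisson intervals, and shares with exact Clopper-Pearson intervals at 95%. A count of 0 allows up to 3 counts. Ratios were log2((CPM + 1)/(CPM + 1)), called from 2-fold among genes that reached 5 CPM in either group, and ratio intervals were conditional on the summed counts. Scripts used Python 3.11.15, numpy 2.4.6 and scipy 1.17.1 and were tested on simulated data. All 10 members are named, listed genes are given by counts with values for those past 2-fold or at 50 CPM, and 3 genes of nearest course are named for each member at 50 CPM. The members and the lists were chosen with earlier results of these data known. Some genes of the lists are counted but not reported here by name.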

Additional observations from a re-analysis of the deposited data

How the results depend on the processing

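Of 446 member ratios recomputed under 9 alternatives, 436 stayed on their side of the 2-fold limit, 8 fell inside it, 2 passed it and 0 changed direction. Adding 5 CPM accounted for 6 of the 8: MMP2 at 6 h (-0.82) and MMP14 at 48 h (0.98) and 4 months (0.81) over signature-positive parental cells, and MMP2 between successive lung libraries (0.64, -0.99 and 0.97). It also left 1 member past 2-fold at 48 h over signature-positive parental cells. MMP14 from 48 h to 2 months passed the limit with a mitochondrial limit of 10% (-1.04) and with equal weight of cells (-1.14). With signature-positive lung cells only it stayed inside the limit, at 14.5 CPM at 48 h and 9.39 CPM at 2 months. With equal weight of cells, the protease share in the lung libraries, in order of time, was 15.1%, 24.7%, 4.65% and 11%. It was 23.2% at 48 h with no filter on barcodes and 5.03% at 2 months in signature-positive cells alone. Taken over all measured MMPs and TIMPs, an alternative added after the values were seen, it was 8.82% in the whole parental library, 29.5% in its signature-positive cells, and 36.5%, 43.6%, 12.7% and 21.4% in the lung libraries, so signature-positive parental cells were then above 4 months. No paired analysis was possible because each timepoint had 1 library. Depth limits MMP1, MMP7 and MMP13 most, which had 2 UMIs each in signature-positive parental cells.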
